A study of Mus musculus with 12 samples.

Results

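Messenger RNA of 6 of the 12 libraries of a mouse lung cancer series was compared: 3 libraries labelled SFD@M and 3 labelled OTUB1_KD. The members were taken by these labels alone, and no measured value was used to choose them. OTUB1_KD libraries came from lung cancer grown from the LLC line (Lewis lung carcinoma, which can be transplanted between mice), which had received a lentivirus against Otub1 before an orthotopic model, a tumour placed in the lung, was made with them. SFD@M libraries came from tumour-bearing mice given SFD@M, a treatment that the labels name and do not describe. The reference group of the former experiment is NC (LLC cells with a control lentivirus, 3 libraries) and that of the latter is Blank (saline, 3 libraries), and both serve here as levels of tumour-cell RNA only. Group and experiment cannot be told apart in the comparison, since no OTUB1_KD library is from the treatment experiment and no SFD@M library from the knockdown experiment. The labels give no strain, age or sex of the mice, no dose of SFD@M and no day of sampling. No label says that the libraries of a group came from separate mice, and the spread that the p-values rest on may be technical.

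Whole lung tissue holds gas-exchange epithelium, airway epithelium, a dense capillary bed, blood and resident leukocytes, and a tumour adds its own dividing cells. Interferon gamma, a cytokine made by T and NK cells, induces guanylate-binding proteins, the chemokines Cxcl9 and Cxcl10, and the genes of antigen presentation, with Ciita as the master activator of MHC class II. The transcription factor p53 induces Cdkn1a, an inhibitor of the cell cycle, and glucocorticoids act through a nuclear receptor to induce genes such as Tsc22d3 and Fam107a. In bulk tissue, fewer cells of a type and less RNA per cell cannot be told apart.

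The 6 libraries held 16981226 to 18028815 counts. In each of them Scgb1a1, which club cells of the airway secrete, took the largest share of counts, 1.11% to 3.36%. The OTUB1_KD libraries differed more among themselves than the SFD@M libraries did: across the tested genes, on log2(CPM + 1), pairs within OTUB1_KD correlated at r = 0.921 to 0.941 and pairs within SFD@M at 0.980 to 0.989, where CPM is the usual scaling of counts to library size and genes are not independent replicates. OTUB1_KD replicate 2 stood apart from its own group. It correlated at 0.964, 0.973 and 0.972 with SFD@M replicates 1, 2 and 3, and at 0.921 and 0.941 with OTUB1_KD replicates 1 and 3. Replicate pairs differed by 16.8 to 160 times the sampling variance, so none was a repeat deposit of another.

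The edgeR quasi-likelihood test, with Benjamini-Hochberg adjustment over 14914 tested genes, called 2 genes higher in SFD@M, which is 0.0134% of those tested, and 0 lower. At an unadjusted p below 0.05 there were 1174 higher (7.87%) and 1792 lower genes (12.0%), together 2966 (19.9%), and 317 genes had an adjusted p below 0.1. DESeq2's Wald test on the same counts called 475 higher (3.18%) and 897 lower (6.01%). In 2097 genes (14.1%) each SFD@M library was above each OTUB1_KD library, and in 2091 (14.0%) each was below. A count of list members of either kind is to be read beside these shares. Genes of either kind are called apart. Fewer libraries make this easier to meet: the shares higher and lower were 22.6% and 21.8% without OTUB1_KD replicate 1, 24.7% and 25.8% without OTUB1_KD replicate 2, 17.5% and 18.3% without SFD@M replicate 1, and 18.0% and 17.7% without SFD@M replicate 3. The median log2 fold change of all tested genes was -0.02. Members of the gene lists are therefore given with the value of each library, in the order of replicates 1, 2 and 3, as TMM-scaled CPM, and with the log2 fold change of SFD@M over OTUB1_KD ± its standard error and edgeR's adjusted p. Leaving out OTUB1_KD replicate 2 raised the number of calls to 544 higher and 1331 lower, and leaving out OTUB1_KD replicate 3, SFD@M replicate 2 or SFD@M replicate 3 lowered it to 0, with 2256, 1755 and 1988 genes at an unadjusted p below 0.05.

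The 2 genes called were Fam107a and Cdkn1a. Fam107a encodes an actin-associated protein that is induced by stress and glucocorticoids. It stood at 7.27, 8.94 and 5.48 CPM in OTUB1_KD and at 61.3, 69.9 and 86.7 CPM in SFD@M, and rose by 3.33 ± 0.25 on the log2 scale (adjusted p = 0.019). Cdkn1a, which encodes the cell cycle inhibitor p21, was at 78.0, 71.3 and 93.6 CPM in OTUB1_KD and at 378, 336 and 378 CPM in SFD@M, a rise of 2.17 ± 0.20 (adjusted p = 0.033). In both genes the groups were apart by a wide margin and the libraries within a group were close. Cdkn1a is on both the p53 and the glucocorticoid list. With the tumour share of a library, defined with the residual tumour RNA, as a covariate both genes had an adjusted p of 0.063. Without OTUB1_KD replicate 3 both had 0.12, and without SFD@M replicate 2 or 3 Fam107a had 0.15 and 0.061 and Cdkn1a 0.17 and 0.20. Cdkn1a also lost its call without SFD@M replicate 1, at 0.083, with a log2 fold change between 2.08 and 2.27 over the 6 fits that left out a library.

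The 250 bases upstream of an annotated start of both genes are shown because they hold letters of the elements that their usual activators read. They are from RefSeq's table for GRCm38.p6, a build other than the GRCm39 named in the submitters' processing notes, and run 5′ to 3′ toward the start. In Fam107a (chr14:8309778-8310027, minus strand, 1 of 3 annotated starts) capitals mark ACANNNTGT, the core of a glucocorticoid receptor element, and in Cdkn1a (chr17:29090729-29090978, plus strand, the more upstream of 2 annotated starts) they mark CATGNNNNNNCATG, the core of a p53 element. Both patterns read the same on either strand.
Fam107a: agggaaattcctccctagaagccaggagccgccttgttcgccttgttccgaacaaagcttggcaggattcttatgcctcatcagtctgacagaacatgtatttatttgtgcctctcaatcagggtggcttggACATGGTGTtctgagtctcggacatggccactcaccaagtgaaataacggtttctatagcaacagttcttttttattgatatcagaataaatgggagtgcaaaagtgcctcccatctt
Cdkn1a: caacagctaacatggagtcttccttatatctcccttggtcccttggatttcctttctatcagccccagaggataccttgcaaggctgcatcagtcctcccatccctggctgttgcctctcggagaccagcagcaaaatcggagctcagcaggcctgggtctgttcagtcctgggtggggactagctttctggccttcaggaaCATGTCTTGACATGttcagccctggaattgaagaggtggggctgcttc
The glucocorticoid core was in 8 of 37 promoters (21.6%) of 25 matched glucocorticoid list genes and in 1917 of all 32851 promoters (5.84%). The p53 core was in 1 of 30 promoters (3.33%) of 21 matched p53 list genes, that of Cdkn1a, and in 161 of all promoters (0.490%). These are matches of letters, not measured binding sites.

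Glucocorticoid-induced genes were mostly higher in SFD@M. Of 32 tested members 17 were apart and higher and 0 apart and lower, with a median log2 fold change of 0.99 and 2 calls, and DESeq2 called 14 higher. Tsc22d3, which encodes the anti-inflammatory protein GILZ, was at 120, 184 and 109 CPM in OTUB1_KD and at 425, 432 and 407 CPM in SFD@M (1.61 ± 0.25, adjusted p = 0.069). The transcription factor gene Klf15 was at 22.6, 35.6 and 25.2 CPM against 78.1, 76.5 and 71.7 CPM (1.44 ± 0.21, adjusted p = 0.069). The sulfotransferase gene Sult1a1 was at 41.1, 57.8 and 37.9 CPM against 149, 108 and 143 CPM (1.55 ± 0.23, adjusted p = 0.069). The 3 genes had no overlap between groups, and Tsc22d3 and Klf15 varied little within SFD@M. Glul, which encodes glutamine synthetase, was at 359, 344 and 288 CPM against 676, 687 and 802 CPM. The list's summed level was 2249 ± 322 CPM of library total in OTUB1_KD and 4491 ± 427 CPM in SFD@M (mean ± SD, n = 3). Without OTUB1_KD replicate 1, 21 members were apart and higher (22.6% of all tested genes were), and the median was 1.11.

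Core clock genes, several of which respond to glucocorticoids, were on a list of their own: 6 of 22 were apart and higher, 0 apart and lower, and the median was 0.38. Per2 was at 32.8, 56.1 and 31.0 CPM in OTUB1_KD and at 76.9, 75.6 and 83.3 CPM in SFD@M, with an adjusted p of 0.11. Per1 was at 40.6, 81.7 and 52.2 CPM against 84.0, 129 and 110 CPM, and Cry2 at 47.1, 62.4 and 56.0 CPM against 81.9, 76.0 and 78.4 CPM. The labels give no time of day for the sampling.

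Targets of p53 were likewise mostly higher in SFD@M. Of 28 tested members 17 were apart and higher and 1 apart and lower, with a median of 0.72 and 1 call, and DESeq2 called 12 higher and 1 lower. Ccng1, a cyclin gene that p53 induces strongly, was at 116, 124 and 69.1 CPM in OTUB1_KD and at 366, 372 and 400 CPM in SFD@M (1.88 ± 0.26, adjusted p = 0.069). Trp53inp1, a stress-induced regulator of p53, was at 86.0, 120 and 45.9 CPM against 280, 292 and 305 CPM (1.80 ± 0.33, adjusted p = 0.085). In both genes OTUB1_KD replicate 3 was the lowest library. Pmaip1, the death-promoting BH3 protein NOXA, was at 14.7, 12.4 and 7.26 CPM against 42.2, 37.6 and 34.3 CPM (1.73 ± 0.28, adjusted p = 0.079). The death receptor gene Fas was at 37.2, 44.7 and 25.5 CPM against 81.0, 74.9 and 107 CPM. On the list of apoptosis and cell death genes, which holds Pmaip1 and Fas too, 8 of 32 were apart and higher and 7 apart and lower. Bcl2l1, which encodes the survival protein BCL-XL, was at 84.7, 101 and 93.6 CPM against 169, 155 and 202 CPM, whereas the leukocyte survival gene Bcl2a1d, one of several near-identical copies, was at 16.3, 14.7 and 24.0 CPM against 4.80, 5.89 and 8.16 CPM.

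**Figure D1:**
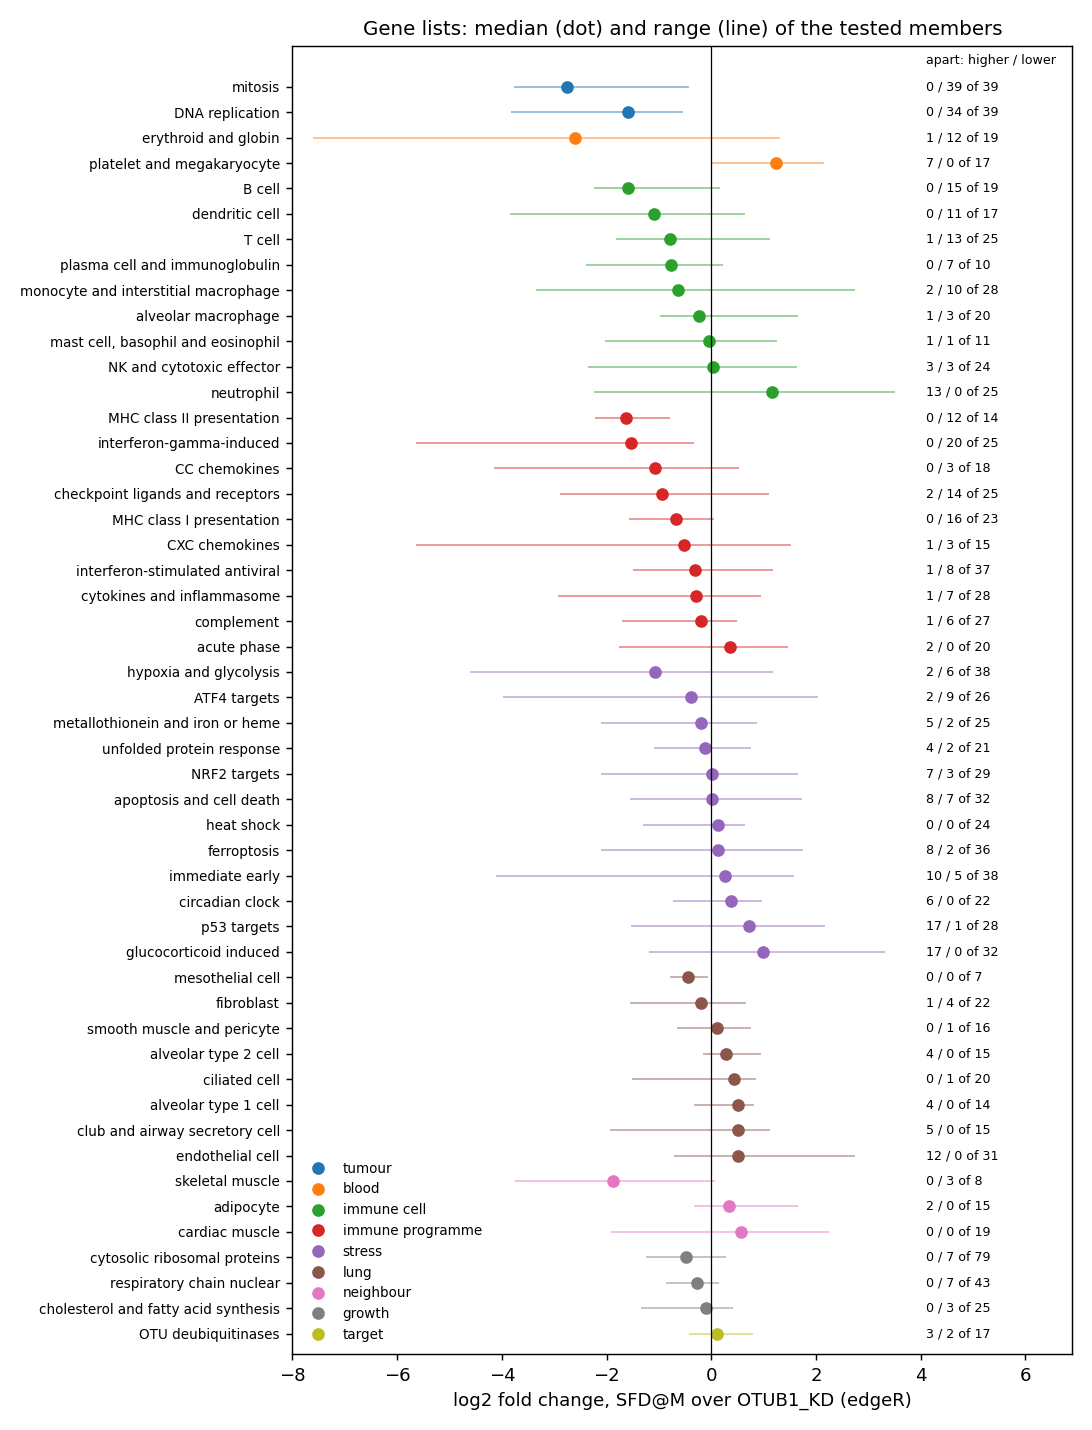
Median (dot) and range (line) of the log2 fold change of SFD@M over OTUB1_KD for the tested members of each gene list with at least 5 tested members, coloured by class; numbers on the right give members whose libraries are all higher or all lower in SFD@M. The mitosis list lies lowest with a median of -2.75 and all 39 members apart and lower, and the platelet, neutrophil and glucocorticoid lists lie highest with medians of 1.23, 1.16 and 0.99.

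Residual tumour RNA was measured from 4 Y-linked genes, which were at 346 CPM summed in NC and 372 CPM in Blank. In the OTUB1_KD libraries their sum was 127, 0.636 and 24.5 CPM, or 36.9%, 0.184% and 7.08% of the NC level. In the SFD@M libraries it was 1.64, 0.177 and 0.589 CPM, or 0.442%, 0.0475% and 0.158% of the Blank level. These percentages are called the tumour share; that the Y-linked reads came from LLC cells is an assumption. OTUB1_KD replicate 2 lay within the range of the SFD@M libraries, and replicates 1 and 3 lay far above it. Only Uty, a histone demethylase gene, passed the filter on low counts, at 16.2, 0.331 and 3.52 CPM against 0.937, 0.178 and 0.473 CPM, and its groups overlapped. The other 3 genes, Ddx3y, Eif2s3y and Kdm5d, had 979, 981 and 371 counts over the OTUB1_KD libraries and 8, 5 and 1 over the SFD@M libraries. The ratios were 118 for Ddx3y (95% counting interval 59.7 to 275), 189 for Eif2s3y (80.9 to 585) and 358 for Kdm5d (63.9 to 14200). OTUB1_KD replicate 1 carried most of these counts: for Kdm5d it held 291 of the 371, replicate 2 held 0 and replicate 3 held 80. A further list of 10 carcinoma line genes summed to 93.2 CPM in NC and 27.6 CPM in Blank, and to 1.60, 0.867 and 0.666 CPM in OTUB1_KD and 0.998, 0.647 and 0.824 CPM in SFD@M. That list was taken from an earlier comparison of OTUB1_KD with NC in these data, so its low level in OTUB1_KD was fixed by its choice. None of its members passed the filter.

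Cell division genes differed more evenly than the Y-linked genes. All 39 tested members of the mitosis list were apart and lower in SFD@M, with a median of -2.75 and the smallest adjusted p at 0.085, so that none was called by edgeR, whereas DESeq2 called 37 lower. Top2a, the topoisomerase that untangles chromosomes, was at 359, 54.0 and 132 CPM in OTUB1_KD and at 5.39, 21.8 and 29.4 CPM in SFD@M (-3.27 ± 0.81, adjusted p = 0.11). Ccnb1, the mitotic cyclin, was at 92.2, 12.5 and 49.8 CPM against 2.11, 4.22 and 4.96 CPM (-3.77 ± 0.71, adjusted p = 0.085). Mki67, the proliferation marker, was at 208, 68.9 and 49.6 CPM against 8.14, 26.8 and 33.03 CPM (-2.26 ± 0.66, adjusted p = 0.14), and its log2 fold change was -1.39 without OTUB1_KD replicate 1 and -1.30 with the tumour share as covariate. OTUB1_KD replicate 2, whose tumour share was 0.184%, was above each SFD@M library in the 39 genes. Bub3, a checkpoint protein gene, differed least, at 85.01, 78.4 and 114 CPM against 67.8, 68.9 and 71.2 CPM. Of 39 DNA replication genes 34 were apart and lower, with a median of -1.58 and 33 called lower by DESeq2. Uhrf1, which maintains DNA methylation during replication, was at 121, 16.9 and 82.6 CPM against 2.81, 5.71 and 7.09 CPM, and the helicase gene Mcm2 at 66.5, 23.7 and 71.4 CPM against 11.6, 14.0 and 13.2 CPM. Pcna, the sliding clamp, overlapped, at 216, 93.2 and 137 CPM against 84.1, 79.2 and 94.5 CPM.

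With OTUB1_KD replicate 1 left out all 39 mitosis genes were still apart and lower (21.8% of all tested genes were) and the median was -2.03. Subtracting tumour RNA, as the tumour share of each library times the mean of NC or Blank, gave medians of -1.09 for mitosis and -1.03 for DNA replication. That fit used limma on log2(CPM + 1), with negative levels cut off, so its medians are on another scale than edgeR's. Mki67 turned to 2.08 under that subtraction, since 36.9% of its NC level, 697 CPM, exceeds the level in OTUB1_KD replicate 1.

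**Figure D2:**
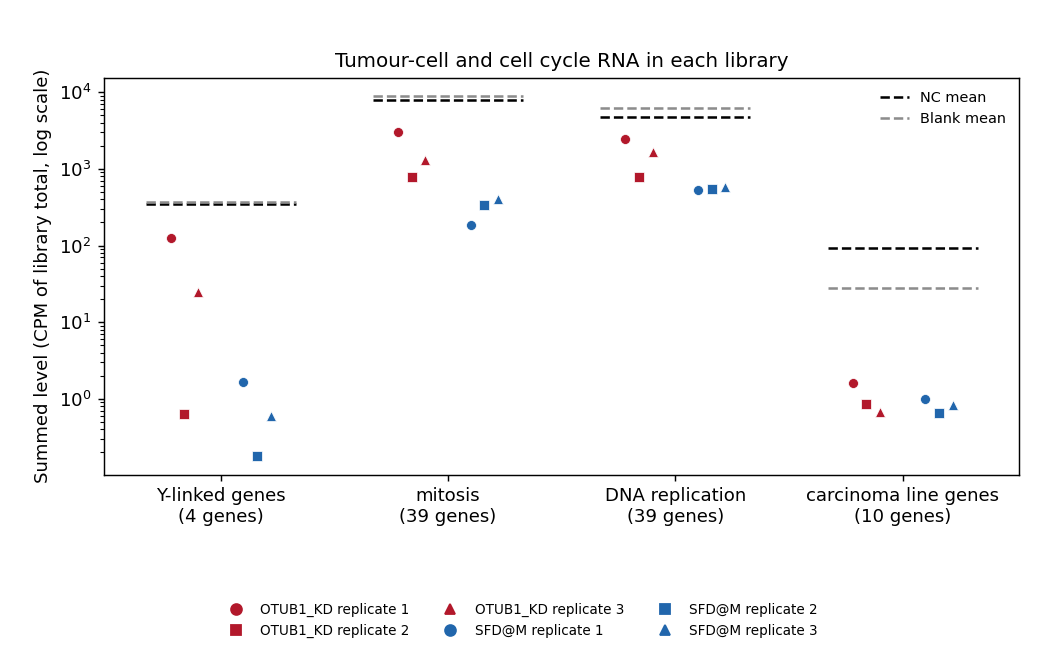
Summed CPM of library total (log scale) of 4 gene lists in the 6 libraries, red for OTUB1_KD and blue for SFD@M, with the means of NC and Blank as dashed lines. Y-linked RNA of OTUB1_KD replicate 2 (0.636 CPM) lies among the SFD@M values, while its mitosis sum (779 CPM) lies above the SFD@M range of 188 to 406 CPM.

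Genes of red cells gave the widest gap of the blood lists. Of 19 tested erythroid and globin genes 12 were apart and lower in SFD@M and 1 apart and higher, with a median of -2.61, 0 calls and 10 called lower by DESeq2. Alas2, the heme synthesis enzyme of red cell precursors, was at 108, 83.0 and 90.6 CPM in OTUB1_KD and at 1.58, 0.0595 and 0.177 CPM in SFD@M (-7.25 ± 0.77, adjusted p = 0.057). Hbb-bs, an adult beta globin gene, was at 2982, 3702 and 5755 CPM against 93.8, 0.714 and 0.591 CPM (-7.03 ± 1.92, adjusted p = 0.12). The alpha globin gene Hba-a1 was at 1801, 2386 and 4199 CPM against 73.1, 9.52 and 8.63 CPM. Globin genes have near-identical copies, and how the authors' counting split reads between them is not known. The OTUB1_KD libraries were close together in Alas2 and less so in the globin genes, where replicate 3 was highest, and SFD@M replicate 1 was far above the other two SFD@M libraries. Without SFD@M replicate 1 Alas2 and Hbb-bs had an adjusted p of 0.0023, with log2 fold changes of -9.55 and -12.6. Alas2 also passed the threshold without OTUB1_KD replicate 2 (adjusted p = 0.0097). Without OTUB1_KD replicate 3, SFD@M replicate 2 or SFD@M replicate 3 the adjusted p was higher, 0.23, 0.17 and 0.20 for Alas2 and 0.28, 0.33 and 0.26 for Hbb-bs.

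Several membrane and enzyme genes of red cells were apart in the same direction. Slc4a1, the anion exchanger band 3, had 312 counts over the OTUB1_KD libraries and 3 over the SFD@M libraries, a ratio of 100 with a counting interval of 34.1 to 490. Bpgm, which makes the regulator of oxygen release, was at 54.1, 67.6 and 74.3 CPM against 25.2, 24.9 and 23.3 CPM (-1.42 ± 0.18, adjusted p = 0.061). The summed red cell list was 7184, 9423 and 13740 CPM in OTUB1_KD and 579, 386 and 342 CPM in SFD@M, beside 801 CPM in NC and 899 CPM in Blank, where the globin genes and Alas2 were below 1 CPM. Tfrc, the transferrin receptor that dividing cells use too, was the member apart and higher. OTUB1_KD replicate 1, with the highest tumour share, had the lowest sum of its group. A relation between the tumour share and the red cell genes was not tested.

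The 250 bases upstream of Alas2 (GRCm38.p6, chrX:150547167-150547416, plus strand) are shown because the gene had the smallest p of all genes that were lower. Capitals mark the only match to the GATA site AGATAA, here as its reverse complement, read by the red cell factor GATA1.
Alas2: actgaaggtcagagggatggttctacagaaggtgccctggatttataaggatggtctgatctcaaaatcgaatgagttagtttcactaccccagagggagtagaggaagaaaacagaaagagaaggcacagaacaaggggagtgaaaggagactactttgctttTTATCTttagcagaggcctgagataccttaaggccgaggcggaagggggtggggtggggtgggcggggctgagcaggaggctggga
The site, searched on both strands, was in 6 of 19 promoters (31.6%) of 16 matched erythroid genes and in 9.99% of all promoters.

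Platelet and neutrophil genes lay the other way. Of 17 platelet and megakaryocyte genes 7 were apart and higher and 0 apart and lower, with a median of 1.23 and 6 called higher by DESeq2. Gp1bb, part of the von Willebrand factor receptor, was at 2.35, 2.26 and 1.44 CPM in OTUB1_KD and at 15.7, 7.67 and 3.49 CPM in SFD@M (2.15 ± 0.55, adjusted p = 0.12). Tubb1, the platelet tubulin, was at 6.29, 11.6 and 12.3 CPM against 50.1, 24.98 and 14.1 CPM, and the chemokine Ppbp at 29.5, 28.1 and 15.8 CPM against 122, 58.3 and 31.1 CPM. SFD@M replicate 1 was highest and replicate 3 lowest of its group in the 3 genes. The most abundant members, Gng11 and Itgb3, overlapped, with log2 fold changes of 0.01 ± 0.32 and 0.20 ± 0.28. The summed list overlapped too, at 212, 287.5 and 201 CPM against 599, 393 and 243 CPM, beside 359 CPM in NC and 78.6 CPM in Blank. Without SFD@M replicate 1 the list's median was 0.68, with 7 members apart and higher (17.5% of all tested genes were). Without OTUB1_KD replicate 2, 12 were apart and higher (24.7% of all tested genes were), and without SFD@M replicate 3, 15 (18.0%).

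Of 25 tested neutrophil genes 13 were apart and higher and 0 apart and lower, with a median of 1.16 and 12 called higher by DESeq2. The antimicrobial S100 genes S100a8 and S100a9 were at 126, 82.3 and 31.4 CPM against 548, 282 and 578 CPM and at 232, 145 and 53.2 CPM against 753, 506 and 836 CPM. Retnlg, a neutrophil resistin-like gene, was at 33.7, 14.9 and 6.92 CPM against 171, 140 and 254 CPM (3.35 ± 0.56, adjusted p = 0.081). Mmp8, neutrophil collagenase, was at 18.4, 6.40 and 4.15 CPM against 77.3, 53.8 and 189 CPM (3.47 ± 0.68, adjusted p = 0.085). OTUB1_KD replicate 3 was lowest in each of the 4 genes. Csf3r, the receptor for the growth factor of granulocytes, was at 80.9, 66.4 and 33.7 CPM against 254, 180 and 205 CPM. Chil3, the most abundant tested member and also on the alveolar macrophage list, overlapped. It was at 568, 632 and 470 CPM against 1178, 527 and 516 CPM (0.41 ± 0.355, adjusted p = 0.535). The log2 fold change was negative in 3 tested members, down to -2.24. The summed list was 1373 ± 336 CPM in OTUB1_KD and 3159 ± 808 CPM in SFD@M, beside 31.4 CPM in NC and 6.96 CPM in Blank.

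Most B cell genes and many T cell genes were lower in SFD@M, while the pan-leukocyte gene overlapped. Ptprc, which encodes CD45, was at 225, 228 and 160 CPM in OTUB1_KD and at 221, 211 and 228 CPM in SFD@M (0.11 ± 0.20, adjusted p = 0.79), and the sign of its difference changed without OTUB1_KD replicate 3. Of 19 B cell genes 15 were apart and lower and 0 apart and higher, with a median of -1.60 and 14 called lower by DESeq2. The B cell inhibitory receptor genes Cd72 and Cd22 were at 27.2, 18.0 and 30.2 CPM against 6.62, 9.46 and 7.92 CPM and at 18.4, 28.0 and 27.8 CPM against 10.5, 7.55 and 6.21 CPM, with adjusted p of 0.081 and 0.085. Fcrla, an Fc receptor-like gene of B cells, was at 4.92, 8.83 and 7.78 CPM against 2.11, 1.73 and 0.946 CPM. These 3 genes were apart, whereas the 2 most abundant tested members of the list overlapped. Cd37 was at 23.45, 36.4 and 37.6 CPM against 31.4, 22.1 and 22.1 CPM (-0.37 ± 0.25, adjusted p = 0.44). Cd79b was at 19.8, 46.85 and 59.9 CPM against 20.5, 11.7 and 9.57 CPM (-1.60 ± 0.45, adjusted p = 0.13). Among 10 tested plasma cell genes 7 were apart and lower: Jchain, which joins secreted IgA and IgM, was at 71.0, 206 and 119 CPM against 24.8, 17.1 and 33.6 CPM (-2.39 ± 0.42, adjusted p = 0.085). Mzb1, a chaperone for immunoglobulin secretion, was at 7.95, 17.0 and 11.01 CPM against 4.33, 3.63 and 4.14 CPM. The constant region genes of immunoglobulins and T cell receptors on these lists are not analysed here.

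Among 25 T cell genes 13 were apart and lower and 1 apart and higher, with a median of -0.79 and 11 called lower by DESeq2. The summed T cell list overlapped, at 369 ± 52.4 CPM in OTUB1_KD and 333 ± 16.1 CPM in SFD@M. Cd8a, of cytotoxic T cells, was at 29.6, 27.5 and 36.4 CPM in OTUB1_KD and at 12.7, 14.0 and 11.6 CPM in SFD@M (-1.29 ± 0.21, adjusted p = 0.074). Cd3e, of the T cell receptor complex, was at 10.1, 11.5 and 15.4 CPM against 3.98, 5.29 and 5.61 CPM, and the inhibitory receptor Ctla4 at 3.55, 2.76 and 3.40 CPM against 0.878, 0.952 and 0.886 CPM. Of 24 NK and cytotoxic effector genes 3 were apart and higher and 3 apart and lower, and the median was 0.02. These shares are near the 14.1% and 14.0% of all tested genes. Without SFD@M replicate 1, 10 were apart and higher (17.5% of all tested genes were). Gzmb, the main granzyme, overlapped at 16.3, 12.4 and 21.4 CPM against 8.72, 17.4 and 20.7 CPM. Ifng, which encodes interferon gamma, was at 3.15, 1.05 and 4.32 CPM against 0.527, 0.357 and 0.768 CPM (-2.35 ± 0.60, adjusted p = 0.11), and Gzmk, of memory T cells, at 4.41, 4.69 and 4.38 CPM against 0.293, 0.773 and 1.60 CPM. The NK receptor genes Klra8 and Klrb1c were apart and higher, at 3.32, 1.71 and 2.36 CPM against 5.09, 9.22 and 8.63 CPM and at 3.83, 5.41 and 5.19 CPM against 6.62, 12.4 and 9.63 CPM. Klra8 belongs to a family of near-identical copies.

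Dendritic cell genes were lower as well: 11 of 17 were apart and lower, 0 apart and higher, with a median of -1.10 and 10 called lower by DESeq2. Xcr1, the chemokine receptor of cross-presenting dendritic cells, was at 3.49, 9.49 and 6.00 CPM in OTUB1_KD and at 0.527, 0.476 and 0.296 CPM in SFD@M (-3.85 ± 0.51, adjusted p = 0.061). Itgae, an integrin of those cells and of resident T cells, was at 6.41, 13.6 and 9.05 CPM against 1.46, 2.08 and 1.3 CPM. Siglech, of plasmacytoid dendritic cells, was at 2.57, 3.15 and 2.13 CPM against 0.176, 0.714 and 0.355 CPM. In Xcr1 and Itgae OTUB1_KD replicate 2 was the highest library. Irf8, a factor that dendritic cells need, was at 58.9, 71.5 and 105 CPM against 34.7, 29.9 and 30.9 CPM.

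Monocyte and interstitial macrophage genes were mixed, with 10 of 28 apart and lower, 2 apart and higher and a median of -0.64. Leaving out OTUB1_KD replicate 2 gave 18 apart and lower, beside 25.8% of all tested genes. C1qa, C1qb and C1qc, the subunits of complement C1q made by tissue macrophages, were apart and lower. C1qc was at 191, 75.8 and 249 CPM in OTUB1_KD and at 47.3, 58.8 and 52.9 CPM in SFD@M (-1.70 ± 0.39, adjusted p = 0.10), with OTUB1_KD replicate 2 nearest to SFD@M. Lyve1, a hyaluronan receptor of lymphatic endothelium and of a perivascular macrophage subset, was at 63.0, 122 and 67.7 CPM against 642, 601 and 444 CPM (2.74 ± 0.32, adjusted p = 0.059). Ace, of capillaries and patrolling monocytes, was at 388, 592 and 794 CPM against 910, 1320 and 1273 CPM. Lyve1 is on the endothelial list as well. Alveolar macrophage genes had a median of -0.24, with 1 of 20 apart and higher and 3 apart and lower, the latter near the 14.0% of all tested genes.

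**Figure D3:**
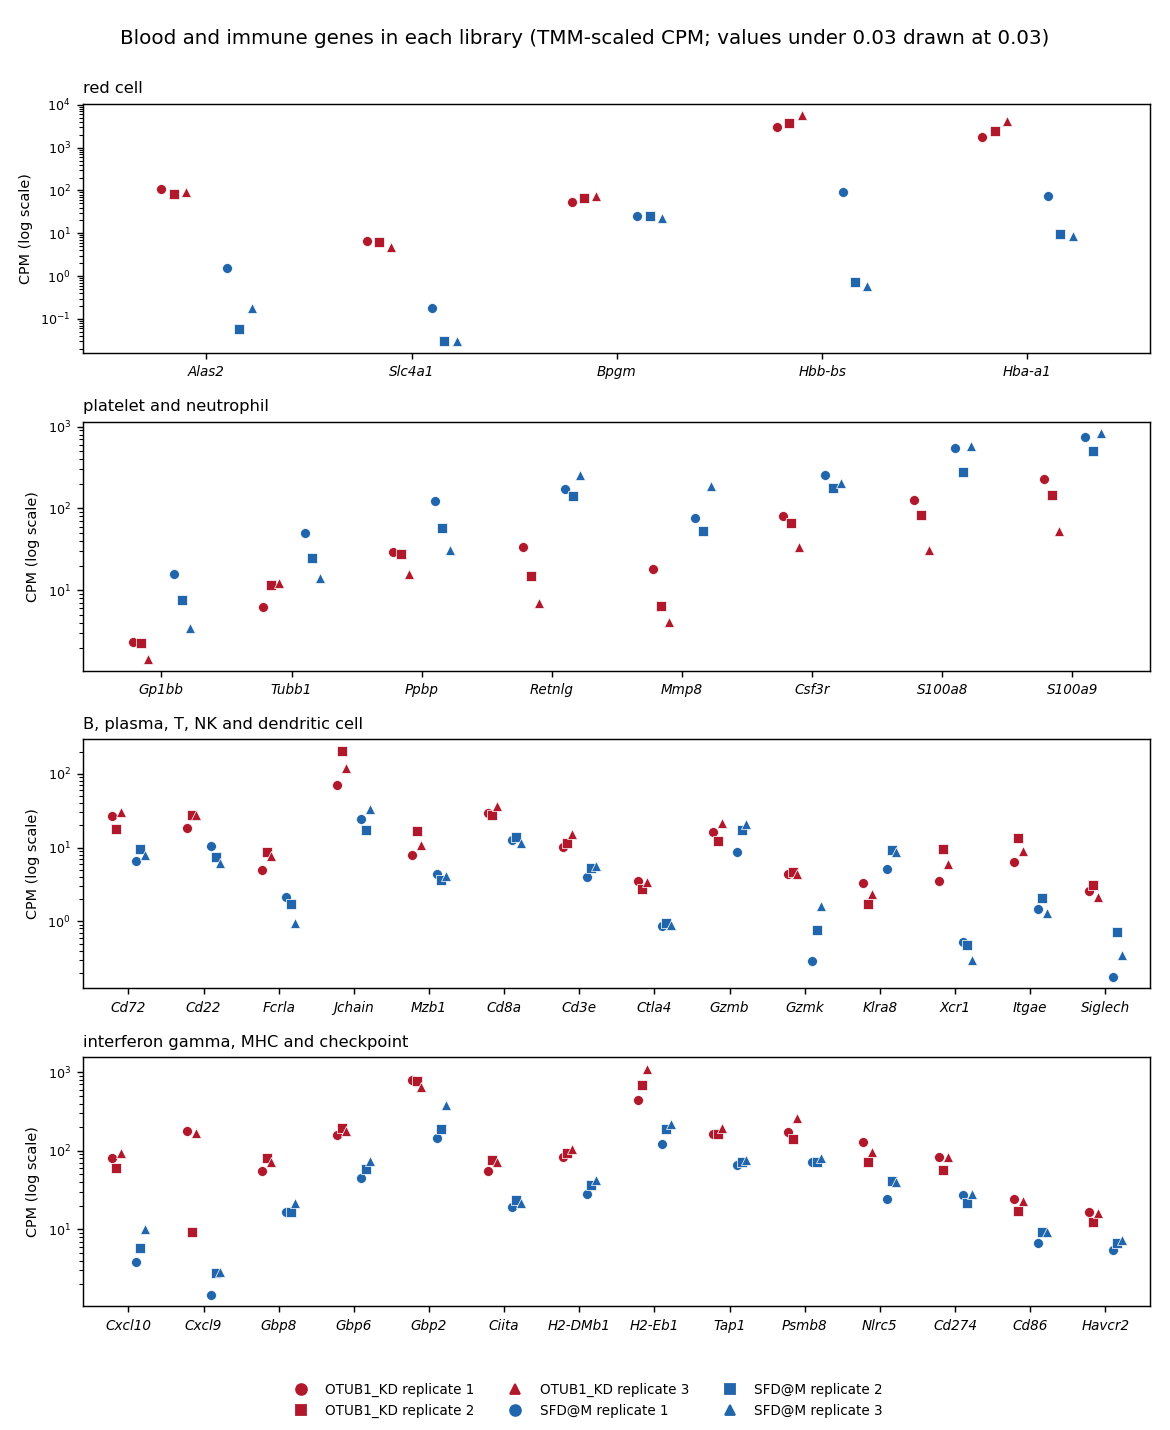
TMM-scaled CPM (log scale) of blood and immune genes in each of the 6 libraries, red for OTUB1_KD and blue for SFD@M, with marker shape for the replicate. Red cell, B cell, dendritic cell and interferon gamma genes lie lower in SFD@M and platelet and neutrophil genes higher, and SFD@M replicate 1 is the highest of its group for Hbb-bs at 93.8 CPM.

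Genes induced by interferon gamma were lower in SFD@M. Of 25 tested members 20 were apart and lower and 0 apart and higher, with a median of -1.53 and 19 called lower by DESeq2, and edgeR called 0. Cxcl10, a chemokine that draws activated T cells, was at 80.0, 61.3 and 93.8 CPM in OTUB1_KD and at 3.81, 5.71 and 10.2 CPM in SFD@M (-3.57 ± 0.38, adjusted p = 0.057). Gbp8 and Gbp6, guanylate-binding proteins that attack intracellular pathogens, were at 55.6, 81.7 and 72.0 CPM against 16.7, 16.6 and 21.9 CPM (-1.92 ± 0.22, adjusted p = 0.059) and at 159, 197 and 177 CPM against 45.1, 58.9 and 74.3 CPM. In the 3 genes the OTUB1_KD libraries, including replicate 2, were close together. Cxcl9, the other T cell chemokine of the list, was at 181, 9.33 and 170 CPM against 1.46, 2.80 and 2.90 CPM (-5.65 ± 1.04, adjusted p = 0.085), so OTUB1_KD replicate 2 was far below its group there. Gbp2 was at 796, 767 and 653 CPM against 144, 189 and 388 CPM. Without OTUB1_KD replicate 1 or replicate 2, 20 members were apart and lower in each case (21.8% and 25.8% of all tested genes were), and the medians were -1.45 and -1.40. The summed list was 3832 ± 428 CPM in OTUB1_KD and 1622 ± 456 CPM in SFD@M, beside 251 CPM in NC and 172 CPM in Blank.

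The upstream 250 bases of Cxcl10 (GRCm38.p6, chr5:92348890-92349139, minus strand) and Gbp2 (chr3:142620413-142620662, plus strand) are shown for the interferon-stimulated response element (ISRE), which interferon-activated factors bind. Capitals mark the core GAAANNGAAA, searched on both strands; in Gbp2 it stands as its reverse complement.
Cxcl10: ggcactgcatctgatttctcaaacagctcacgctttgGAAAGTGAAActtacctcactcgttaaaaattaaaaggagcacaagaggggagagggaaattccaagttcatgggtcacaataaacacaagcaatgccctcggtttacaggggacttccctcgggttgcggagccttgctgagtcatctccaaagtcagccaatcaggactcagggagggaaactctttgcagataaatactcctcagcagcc
Gbp2: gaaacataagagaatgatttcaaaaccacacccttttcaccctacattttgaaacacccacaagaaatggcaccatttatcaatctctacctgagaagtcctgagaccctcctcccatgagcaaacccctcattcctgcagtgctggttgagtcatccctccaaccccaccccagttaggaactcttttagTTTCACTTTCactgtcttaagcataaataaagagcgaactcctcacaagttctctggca
The match begins 213 bases before the start in Cxcl10 and 59 bases before it in Gbp2. The core was in 12 of 19 promoters (63.2%) of 17 matched interferon gamma list genes, in 15 of 31 (48.4%) of 29 antiviral list genes and in 978 of all 32851 promoters (2.98%). 

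Antiviral interferon-stimulated genes differed less, with 8 of 37 apart and lower, 1 apart and higher, a median of -0.30 and 4 called lower by DESeq2. Without SFD@M replicate 3, 19 were apart and lower (17.7% of all tested genes were). Zbp1, a sensor of viral nucleic acid, was at 51.6, 58.3 and 52.7 CPM in OTUB1_KD and at 18.0, 21.9 and 36.9 CPM in SFD@M. Slfn1, a T cell and myeloid gene, was the member apart and higher, at 27.7, 13.5 and 13.8 CPM against 39.7, 39.3 and 45.7 CPM. The difference between the medians of both interferon lists was not tested.

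MHC class II genes were lower: 12 of 14 were apart and lower, 0 apart and higher, the median was -1.64, and DESeq2 called 12 lower. Ciita was at 55.3, 76.0 and 71.5 CPM in OTUB1_KD and at 19.2, 23.4 and 21.5 CPM in SFD@M (-1.66 ± 0.19, adjusted p = 0.059), and over the 6 fits that left out a library its adjusted p ranged from 0.010 without OTUB1_KD replicate 2 to 0.28 without SFD@M replicate 1, with 2 of the 6 past the threshold. H2-DMb1, which helps load peptides, was at 82.8, 92.9 and 105 CPM against 28.5, 37.1 and 42.0 CPM (-1.39 ± 0.20, adjusted p = 0.069). The chain genes H2-Eb1 and H2-Aa were at 437, 687 and 1112 CPM against 122, 192 and 222 CPM and at 605, 981 and 1263 CPM against 219, 339 and 363 CPM. In both genes replicate 1 was the lowest and replicate 3 the highest OTUB1_KD library, and a relation to the tumour share was not tested. Cd74, the invariant chain, was at 1309, 2030 and 2763 CPM against 447, 800 and 933 CPM. The list summed to 6149 ± 1830 CPM in OTUB1_KD and 2139 ± 408 CPM in SFD@M, beside 1516 CPM in NC and 952 CPM in Blank.

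MHC class I genes showed a smaller difference, with 16 of 23 apart and lower, 0 apart and higher and a median of -0.67; DESeq2 called 12 lower. Tap1, the peptide transporter, was at 163, 165 and 194 CPM in OTUB1_KD and at 66.7, 72.3 and 76.8 CPM in SFD@M (-1.27 ± 0.17, adjusted p = 0.061). Psmb8, an immunoproteasome subunit, was at 175, 141 and 261 CPM against 72.4, 72.9 and 80.7 CPM. Nlrc5, the activator of class I genes, was at 129, 71.2 and 97.9 CPM against 24.4, 41.2 and 40.2 CPM. All 3 genes were apart, and the SFD@M values of Tap1 and Psmb8 lay within a narrow range. The classical heavy chain genes H2-K1 and H2-D1, which share near-identical stretches, were at 1865, 2392 and 2623 CPM against 1262, 1575 and 1608 CPM (-0.63 ± 0.25, adjusted p = 0.22) and at 2575, 2140 and 3154 CPM against 1386, 1604 and 1632 CPM.

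Checkpoint genes were mostly lower, with 14 of 25 apart and lower, 2 apart and higher, a median of -0.95 and 10 called lower by DESeq2. Cd274, which encodes PD-L1, the ligand that restrains T cells, was at 82.3, 56.3 and 84.0 CPM in OTUB1_KD and at 27.3, 21.7 and 28.0 CPM in SFD@M (-1.53 ± 0.22, adjusted p = 0.069). The costimulatory ligand Cd86 was at 24.0, 17.2 and 23.1 CPM against 6.67, 9.16 and 9.28 CPM, and Havcr2, which encodes TIM-3, at 16.5, 12.6 and 16.1 CPM against 5.504, 6.72 and 7.39 CPM. Cd200, an inhibitory ligand of endothelium and other cells, was apart and higher, at 103, 154 and 105 CPM against 172, 289 and 313 CPM. Among CC chemokines 3 of 18 were apart and lower, a share near that of all tested genes, and 0 apart and higher, with a median of -1.08. Without OTUB1_KD replicate 2, 10 were apart and lower (25.8% of all tested genes were), and without OTUB1_KD replicate 3 the median was -0.61. Ccl2, the monocyte chemokine, was at 182, 12.2 and 170 CPM against 3.51, 4.52 and 12.5 CPM (-4.15 ± 0.97, adjusted p = 0.10), and overlapped through OTUB1_KD replicate 2. Of 28 cytokine and inflammasome genes 7 were apart and lower and 1 apart and higher, with a median of -0.30. Leaving out OTUB1_KD replicate 2 gave 12 apart and lower, beside 25.8% of all tested genes. Il12b, the p40 chain that interleukins 12 and 23 share, was at 1.32, 2.26 and 2.36 CPM against 0.527, 0.178 and 0.0591 CPM. The acute phase list had a median of 0.35, with 2 of 20 apart and higher and 0 apart and lower, and the complement list a median of -0.20, with 1 of 27 apart and higher and 6 apart and lower.

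Ferroptosis, the iron-driven death by lipid peroxidation that the series title names, gave no common direction. Of 36 tested members 8 were apart and higher and 2 apart and lower, the median was 0.13, and edgeR called 0. Leaving out OTUB1_KD replicate 2 gave 6 apart and lower, beside 25.8% of all tested genes. Gpx4, the enzyme that repairs peroxidised lipids, overlapped at 202, 260 and 319 CPM in OTUB1_KD against 310, 237 and 232 CPM in SFD@M, with a log2 fold change of -0.0045 ± 0.24 whose sign changed with the scaling. Slc7a11, the cystine importer, was at 82.8, 31.7 and 117 CPM against 18.5, 27.2 and 27.5 CPM (-1.66 ± 0.44, adjusted p = 0.12). Hmox1, which breaks down heme, was at 451, 43.5 and 244 CPM against 69.5, 47.8 and 54.6 CPM, so OTUB1_KD replicate 2 was below each SFD@M library. In Slc7a11 and Hmox1 OTUB1_KD replicates 1 and 3 were the high libraries. Their tumour shares were 36.9% and 7.08%, and between these replicates Slc7a11 ran opposite to the share. Whether tumour RNA made these differences was not tested. Acsl4, which loads polyunsaturated lipids, was at 222, 171 and 99.95 CPM against 187, 218 and 255 CPM, and Aifm2, the suppressor FSP1, at 31.2, 36.2 and 40.1 CPM against 31.4, 26.6 and 26.1 CPM; both overlapped. Tfrc, the transferrin receptor, was apart at 81.5, 89.3 and 85.3 CPM against 110, 135 and 92.4 CPM (0.40 ± 0.19, adjusted p = 0.28). The iron store gene Fth1 overlapped at 2878, 1793 and 3323 CPM against 2132, 1816 and 1976 CPM, as did the prostaglandin synthase Ptgs2 at 42.6, 20.1 and 23.6 CPM against 19.7, 25.7 and 33.03 CPM. Alox12, a platelet lipoxygenase, was apart and higher, at 6.18, 14.96 and 12.0 CPM against 61.4, 32.3 and 18.1 CPM, with the same order of SFD@M libraries as the platelet genes.

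Targets of the oxidative stress factor NRF2 had a median of 0.01, with 7 of 29 apart and higher and 3 apart and lower. Leaving out OTUB1_KD replicate 2 gave 10 and 11, beside 24.7% and 25.8% of all tested genes. The glutathione genes Gclc and Gsta3 were apart and higher, at 103, 152 and 122 CPM against 194, 200 and 217 CPM (0.70 ± 0.20, adjusted p = 0.13) and at 63.4, 128 and 76.5 CPM against 413, 217 and 209 CPM (1.65 ± 0.37, adjusted p = 0.0999). Targets of ATF4, the factor of amino acid shortage, had a median of -0.38, with 9 of 26 apart and lower and 2 apart and higher. Leaving out OTUB1_KD replicate 2 gave 14 apart and lower, beside 25.8% of all tested genes. Phgdh, which opens serine synthesis, was at 179, 17.4 and 139 CPM against 7.26, 6.602 and 7.33 CPM (-3.98 ± 0.75, adjusted p = 0.085), and the mitochondrial folate genes Mthfd2 and Shmt2 were at 91.2, 9.60 and 65.9 CPM against 4.04, 5.47 and 6.26 CPM and at 118, 21.6 and 95.5 CPM against 15.7, 18.6 and 16.9 CPM. In these 3 genes OTUB1_KD replicate 2 lay nearer to SFD@M than to its own group. Gdf15, a stress hormone gene induced by ATF4 and p53, was apart and higher, at 2.00, 0.883 and 2.08 CPM against 9.90, 5.95 and 4.55 CPM.

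Hypoxia and glycolysis genes had a median of -1.08, and DESeq2 called 15 lower and 1 higher. Of 38 members 6 were apart and lower, a share near the 14.0% of all tested genes, and 2 apart and higher. Egln3, an oxygen-sensing hydroxylase, was at 325, 11.9 and 49.6 CPM in OTUB1_KD and at 6.91, 3.75 and 5.20 CPM in SFD@M, and the glycolytic Gapdh overlapped at 2332, 647 and 2375 CPM against 681, 593 and 692 CPM. Epas1, the HIF factor of endothelium, was apart and higher, at 628, 1669 and 1844 CPM against 3722, 3159 and 2496 CPM. The summed list was 15510, 6589 and 12120 CPM against 8835, 8097 and 7619 CPM, and 24380 CPM in NC, so OTUB1_KD replicate 2 had the lowest sum. Without OTUB1_KD replicate 1 the median was -0.51 and 6 members were apart and lower (21.8% of all tested genes were). With tumour RNA subtracted, in the limma fit, the median was -0.39. Without OTUB1_KD replicate 2 the median was -1.39 and 25 members were apart and lower (25.8% of all tested genes were).

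Of 24 heat shock genes 0 were apart in either direction, and the median was 0.12. Without OTUB1_KD replicate 2, 7 were apart and lower and 2 higher (25.8% and 24.7% of all tested genes were), and the median was -0.01. The mitochondrial chaperone Hspd1 was at 671, 130 and 275 CPM against 125, 169 and 195 CPM, and the cytosolic Hspa8 at 2280, 1202 and 1797 CPM against 1153, 2061 and 2449 CPM. Both overlapped widely, and SFD@M replicate 1 was the lowest library for each. Of 21 unfolded protein response genes 4 were apart and higher and 2 apart and lower, with a median of -0.12. With all 6 libraries 14.1% of all tested genes were apart and higher and 14.0% apart and lower. Leaving out OTUB1_KD replicate 2 gave 6 apart and lower, beside 25.8% of all tested genes. Herpud1, which clears misfolded proteins from the endoplasmic reticulum, was at 96.3, 135 and 115 CPM against 181, 185 and 211 CPM (0.74 ± 0.19, adjusted p = 0.12). Immediate early genes respond to stimuli within minutes and to tissue handling. They had 10 of 38 members apart and higher and 5 apart and lower, with a median of 0.26. Leaving out OTUB1_KD replicate 1 gave 10 apart and lower, beside 21.8% of all tested genes. Btg2, also a p53 target, was at 91.3, 222 and 128 CPM against 298, 247 and 227 CPM, Dusp2 at 8.35, 4.03 and 10.0 CPM against 2.64, 3.09 and 2.42 CPM, and Myc at 341, 10.2 and 133 CPM against 10.5, 7.79 and 9.69 CPM. Myc overlapped through OTUB1_KD replicate 2, and the NC mean of the list was 1924 CPM summed.

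**Figure D4:**
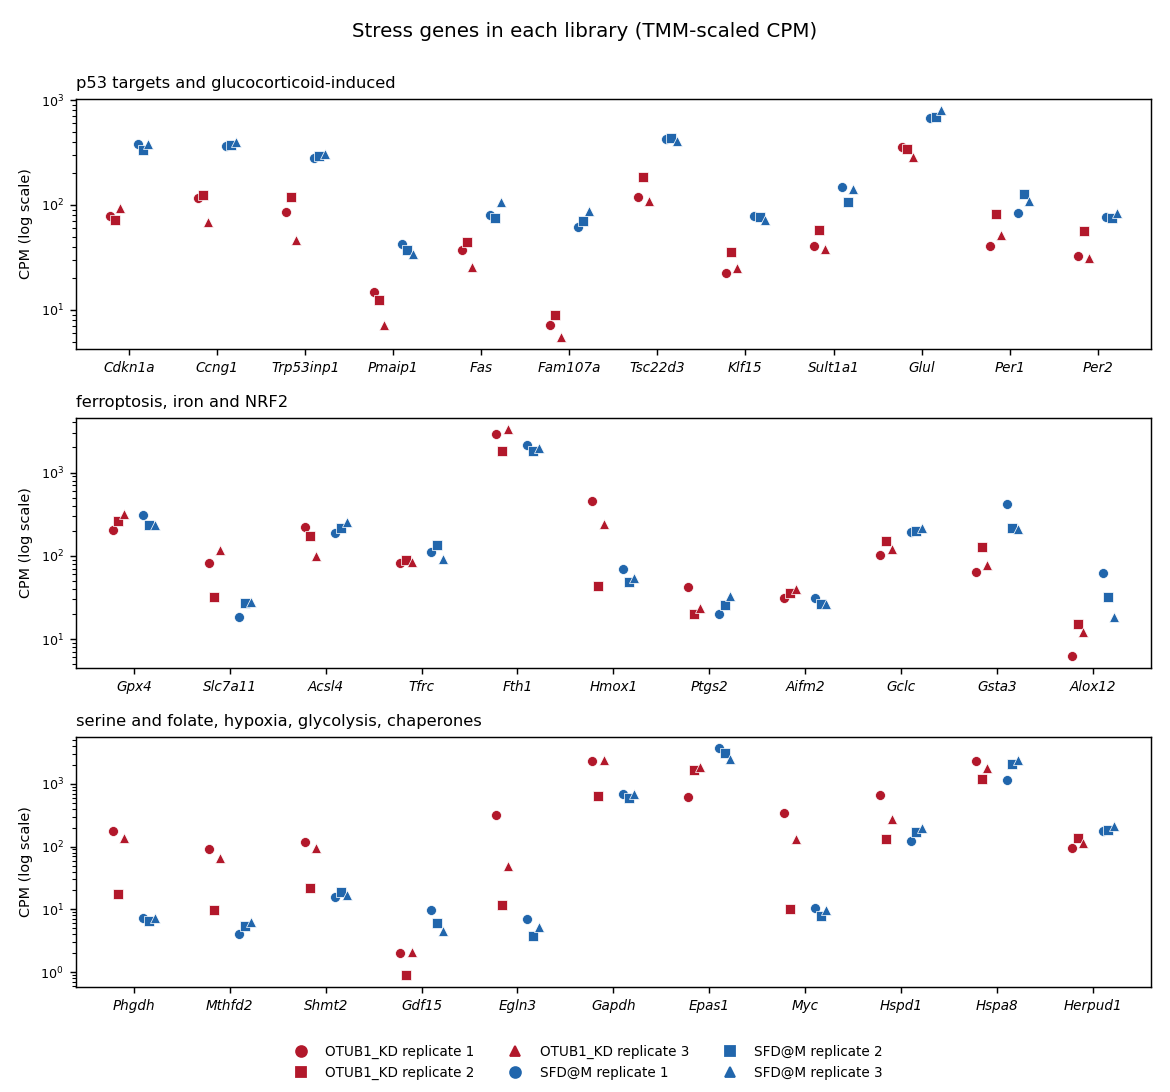
TMM-scaled CPM (log scale) of stress genes in each of the 6 libraries, red for OTUB1_KD and blue for SFD@M, with marker shape for the replicate. Cdkn1a, Ccng1, Fam107a and Tsc22d3 lie higher in SFD@M with no overlap, whereas Gpx4, Fth1 and Hspa8 overlap, and for Hmox1 OTUB1_KD replicate 2 (43.5 CPM) lies below the SFD@M libraries.

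Lung structural genes were abundant in both groups. Sftpc, a surfactant gene that marks type 2 cells of the alveolus, stood at 6760, 15000 and 17040 CPM in OTUB1_KD and at 13670, 15590 and 15420 CPM in SFD@M (0.20 ± 0.37, adjusted p = 0.79). Scgb1a1 was at 11110, 27010 and 17230 CPM against 33550, 30920 and 32650 CPM (0.81 ± 0.37, adjusted p = 0.27), and Aldh1a1, an aldehyde dehydrogenase of airway and other cells, at 392, 973 and 681 CPM against 1252, 1333 and 1591 CPM. OTUB1_KD replicate 1, with a tumour share of 36.9%, was lowest in each. The medians of the alveolar type 2, alveolar type 1, club and endothelial lists were 0.27, 0.51, 0.51 and 0.52, with 4 of 15, 4 of 14, 5 of 15 and 12 of 31 members apart and higher and 0 apart and lower in all 4. Without OTUB1_KD replicate 1 these medians were -0.04, 0.21, 0.24 and 0.19. In that setting 2, 2, 0 and 5 members were apart and lower (21.8% of all tested genes were). Without OTUB1_KD replicate 3, 8, 10, 6 and 16 were apart and higher (17.2% of all tested genes were).

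Endothelial genes had the most members apart among the lung lists. Calcrl, the adrenomedullin receptor of vessels, was at 238, 573 and 274 CPM in OTUB1_KD and at 1315, 1588 and 1168 CPM in SFD@M (1.91 ± 0.37, adjusted p = 0.085). Cd93, of endothelium and myeloid cells, was at 202, 350 and 402 CPM against 693, 999 and 852 CPM, and the VEGF receptor gene Flt1 at 99.4, 135 and 142 CPM against 264, 269 and 194 CPM. These 3 genes were higher in each SFD@M library than in OTUB1_KD replicate 2 as well. The lipid uptake genes Lpl and Cd36, on the adipocyte list and active in alveolar macrophages and capillaries too, were at 172, 182 and 159 CPM against 758, 421 and 445 CPM (1.66 ± 0.27, adjusted p = 0.081) and at 479, 708 and 597 CPM against 1206, 1554 and 1355 CPM. Of 22 fibroblast genes 4 were apart and lower, a share near the 14.0% of all tested genes, and 1 apart and higher, with a median of -0.19. Without OTUB1_KD replicate 1, 10 were apart and lower (21.8% of all tested genes were). Leaving out OTUB1_KD replicate 2 gave 5 apart and higher and 4 lower (24.7% and 25.8% of all tested genes were), with a median of 0.07. The fibrillar collagen genes Col1a1 and Col3a1 were at 718, 420 and 661 CPM against 118, 222 and 270 CPM (-1.56 ± 0.35, adjusted p = 0.10) and at 2345, 1442 and 1353 CPM against 370, 701 and 764 CPM.

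**Figure D5:**
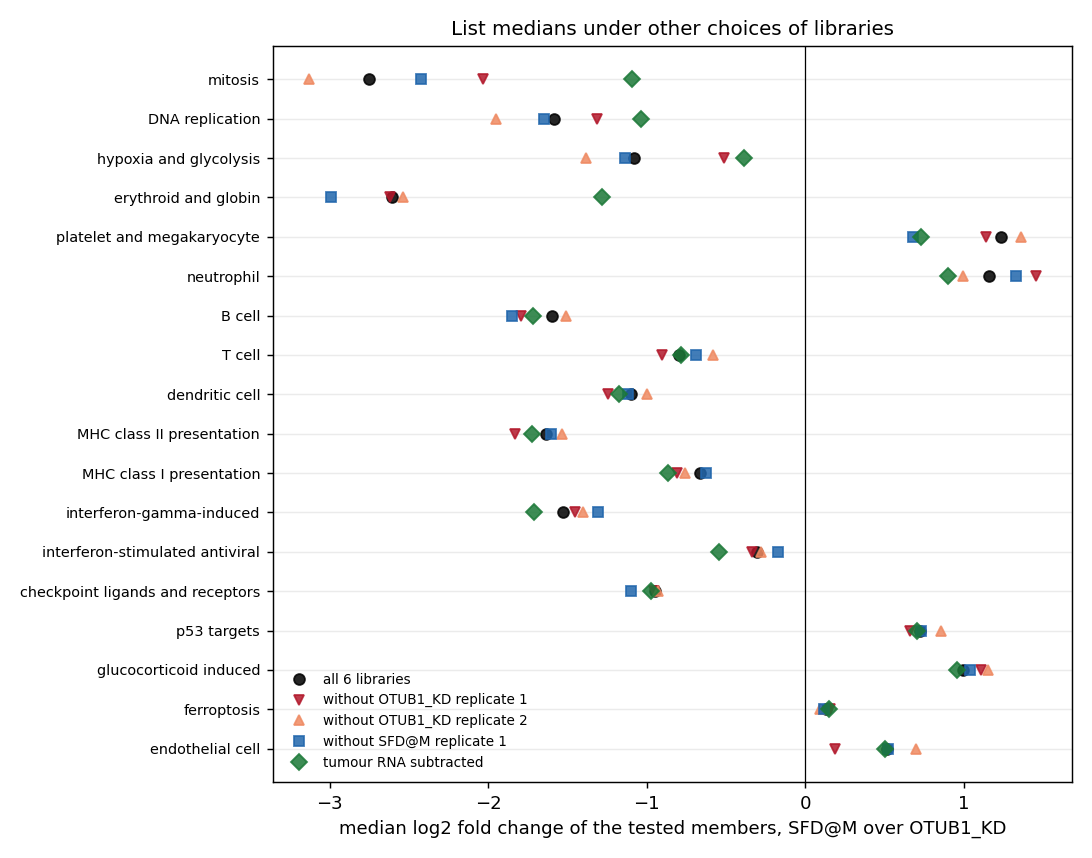
Median log2 fold change of SFD@M over OTUB1_KD of 18 gene lists with all 6 libraries, without each of 3 libraries in turn, and with tumour RNA subtracted. The interferon gamma, MHC class II, B cell, p53 and glucocorticoid medians move little between these choices. With tumour RNA subtracted, hypoxia and glycolysis moves from -1.08 to -0.39, mitosis from -2.75 to -1.09 and red cell genes from -2.61 to -1.28. That setting was fitted with limma on log2(CPM + 1) and the others with edgeR, so these moves include a change of scale that was not separated.

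Otub1, the gene that the lentivirus of the OTUB1_KD group was directed at, was at 58.6, 47.1 and 74.0 CPM in OTUB1_KD and at 47.1, 46.0 and 48.3 CPM in SFD@M (-0.35 ± 0.20, adjusted p = 0.36). The groups overlapped, and the mean of the libraries labelled OTUB1_KD, 59.9 CPM, was not below that of the libraries labelled SFD@M, 47.1 CPM. The virus was given to the LLC cells before the tumours were made. In OTUB1_KD replicate 2 the tumour share was 0.184%, and the mean Otub1 level of the NC libraries was 73.3 CPM of library total. How the tumour share bears on the Otub1 level of the OTUB1_KD libraries was not tested. Among the 17 tested OTU deubiquitinases 3 were apart and higher and 2 apart and lower, with a median of 0.11. These shares are near the 14.1% and 14.0% of all tested genes. Without OTUB1_KD replicate 1, 8 were apart and higher (22.6% of all tested genes were). Otud7b, which opposes NF-kappa B signals, was at 141, 121 and 120 CPM against 209, 200 and 176 CPM (0.61 ± 0.17, adjusted p = 0.13). Otud1 was at 21.8, 38.5 and 22.1 CPM against 49.8, 49.6 and 43.7 CPM, and Zranb1 at 60.8, 77.9 and 52.5 CPM against 94.96, 90.4 and 81.9 CPM.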

How the data were processed

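Per the labels' protocols, oligo(dT) was used to enrich mRNA, and libraries were read as DNA nanoballs. The authors deposited 1 table of 70659 transcripts with expected counts (estimated counts that need not be whole), TPM, FPKM (not used here) and a normalized count signal, per the file headers. RSEM 1.3.1, Bowtie2, DESeq2 1.4.5 and the build GRCm39 appear in the submitters' processing notes without roles. No source here says how strand was handled, so antisense, overlapping and near-identical genes cannot be separated. Dividing the deposited normalized counts by 1 factor per library gave whole reads for 100% of values (tolerance 0.001), which entered an alternative chosen after seeing the data.

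Expected counts were summed per Entrez gene and rounded. Of 19212 genes 19155 matched a symbol in RefSeq's GRCm38.p6 table; counts of unnamed genes reached 0.342% of a library. At these depths 3 counts are at most 0.177 CPM, and intervals cover counting error only. The 6 libraries were fitted with edgeR 4.0.16 in R 4.3.3 (filterByExpr, TMM, robust quasi-likelihood test), with a call at a Benjamini-Hochberg adjusted p below 0.05. Levels of genes are TMM-scaled CPM, and sums over lists are CPM of library totals. On simulated counts for this comparison (14798 genes, each with the spread estimated from the real libraries), edgeR recovered 20% of 2-fold and 84% of 4-fold changes with 12 false calls, and DESeq2 1.42.0 30% and 96% with 42. Genes were simulated independently of each other, without the shifts that many genes of a real library share. The recovery of changes in the real libraries is therefore not known from it.

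Of 1306 entries in 52 gene lists 1282 were found. Members and lists were chosen with earlier results of these data known. The rule for named genes took Otub1, the Y-linked genes, Mki67, Ptprc, Sftpc, Scgb1a1 and panels of 8 ferroptosis and 5 immunity genes whatever their p. It added called genes that were apart with a mean of at least 5 CPM, the 4 smallest p of each list, and the 2 most abundant members of lists of immune cells, blood, tumour, stress and immune programmes. Members opposite to most of their list could be named too; some genes under the rule are not reported here. Alternatives were other scaling factors, filters, DESeq2, limma-voom, limma 3.58.1 on log2 of the deposited TPM plus 1 or 0.1, all 12 libraries, a replicate block, the tumour share as covariate or subtracted, and each library left out. Levels with tumour RNA subtracted were fitted with limma on log2(CPM + 1).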

Additional observations from a re-analysis of the deposited data

How the results depend on the processing

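The number of called genes (2 with all choices as described) depended on the setting. It was 15 with no filter on low counts, 1372 with DESeq2's Wald test, 7 with limma-voom, 12 with limma on log2(TPM + 1) and 12 on log2(TPM + 0.1), 2863 with all 12 libraries in 1 fit, 1 with the tumour share as a covariate (Gbp10, named after its values were seen) and 32 with tumour RNA subtracted. Leaving out 1 library at a time gave 0 to 1875 calls, the largest without OTUB1_KD replicate 2. Other scaling factors, the filter at 1 CPM and the recovered whole reads gave 2. The cause of these shifts was not tested.

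With the replicate number as a block (the replicate block) 7 genes were called. The labels do not say that equal numbers mark a pairing. Deviations from the group means of same-numbered libraries correlated at -0.052, 0.010 and -0.25. With 3 libraries in each group these values cannot show whether same-numbered libraries were handled together. Of the OTUB1_KD libraries only replicate 2 correlated best with its own number.

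Of 120 named genes 7 changed sign in some setting, among them Mki67 (2.08 with tumour RNA subtracted). Gpx4 was 0.00042 with DESeq2 size factors, 0.00043 with DESeq2, 0.0072 with limma-voom, 0.027 on log2(TPM + 1) and 0.027 on log2(TPM + 0.1), and 0.0059 with the replicate block. Ptgs2 was 0.36 with the tumour share as covariate and 1.01 with tumour RNA subtracted, Sftpc -0.22 with the covariate and Ptprc -0.14 with the subtraction. Over the fits without 1 library Gpx4 ranged from -0.16 to 0.16, Gzmb from -0.35 to 0.19, Hspa8 from -0.13 to 0.35, Ptgs2 from -0.35 to 0.25, Ptprc from -0.053 to 0.19 and Sftpc from -0.11 to 0.44. Among 24 list medians of at least 0.5 in size 22 kept their sign in every alternative run; those of CXC chemokines (0.27 with the covariate, 0.16 with the subtraction) and of club cell genes (-0.27 without SFD@M replicate 3) did not.

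Both groups rest on 3 libraries each, 1 OTUB1_KD library resembles SFD@M, and group is confounded with experiment.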

Other observations

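Growth and metabolism lists had few members apart. Cytosolic ribosomal protein genes had a median log2 fold change of -0.49, with 7 of 79 apart and lower and 0 apart and higher, and their summed level was 56180, 38010 and 54060 CPM in OTUB1_KD and 40740, 31290 and 34000 CPM in SFD@M. The NC and Blank means were 75390 and 64320 CPM. The count rested on single libraries: 60 ribosomal genes were apart and lower without OTUB1_KD replicate 2 and 57 without SFD@M replicate 1, where 25.8% and 18.3% of all tested genes were. Nuclear respiratory chain genes had a median of -0.27 with 7 of 43 apart and lower. Leaving out OTUB1_KD replicate 1 gave 21, beside 21.8% of all tested genes. Cholesterol and fatty acid synthesis genes had a median of -0.10 with 3 of 25 apart and lower. Leaving out OTUB1_KD replicate 2 gave 11, beside 25.8% of all tested genes. The summed mean of that list was 4565 CPM in OTUB1_KD and 4748 CPM in SFD@M. With all 6 libraries the shares of these lists that were apart and lower lie near or below the 14.0% of all tested genes.

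Genes of tissues next to the lung varied by library. Cardiac muscle genes summed to 285, 803 and 152 CPM in OTUB1_KD and to 844, 419 and 607 CPM in SFD@M, with 0 of 19 apart. Leaving out OTUB1_KD replicate 2 gave 11 apart and higher, beside 24.7% of all tested genes. Skeletal muscle genes summed to 187, 34.5 and 18.5 CPM against 14.1, 15 and 22.6 CPM, so OTUB1_KD replicate 1 was far above the others, and their median moved from -1.89 to -0.42 without it. Mesothelial genes summed to 703, 1582 and 1292 CPM against 1032, 823 and 1044 CPM, with 0 of 7 apart. Leaving out OTUB1_KD replicate 1 gave 4 apart and lower, beside 21.8% of all tested genes.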
